A study of Mus musculus with 7 samples.

Results

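The 10 genes described here encode the ErbB receptors (Egfr, Erbb2, Erbb3 and Erbb4), 4 ligands of the epidermal growth factor (EGF) type (Hbegf, Ereg, Tgfa and Btc) and 2 brakes on the receptors (Errfi1 and Lrig1). They were taken by name from the 53379 genes of the count tables, and all 10 were among the 14610 genes tested. ErbB receptors are tyrosine kinases of the cell surface. A ligand cut from its membrane anchor by a sheddase brings 2 receptors together, and the pair then signals through RAS and ERK and through AKT. In the uterus Hbegf is known as a ligand made by the luminal epithelium where a blastocyst attaches, and Errfi1 is known as a progesterone-induced gene that limits epithelial growth.

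RNA was sequenced from uterine epithelial cells that had been captured with an EpCAM antibody. Each of the 4 mutant libraries was made from a single CD-1 mouse, 120 days old, of genotype LtfCre 0/+; Brg1 fl/fl, in which Cre is driven by the lactoferrin gene Ltf and so acts in cells that express Ltf. Brg1 is the protein made from Smarca4, and it supplies the ATPase activity of SWI/SNF chromatin remodellers. The 3 control libraries were made from pooled wild-type CD-1 mice of an earlier series and carry neither allele; the sources used here do not give their age. The effects of genotype, of library set, of pooling and of any difference in age therefore cannot be told apart. Where nothing says that the pools held different mice, p-values measure only the spread between these libraries.

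Gene reads numbered 12436971 to 13364080 in mutants and 21372036 to 25862245 in controls, and the floor of 3 reads used here corresponds to 0.224 to 0.241 CPM (counts per 1000000 gene reads, before scaling) in a mutant and 0.116 to 0.140 CPM in a control library. Levels below are CPM after TMM scaling, the scaling of the test, unless stated. Smarca4, the targeted gene, lay at 87.4, 56.6, 86.7 and 105.2 CPM in mutant replicates 1 to 4 and at 263, 245 and 279 CPM in control replicates 1 to 3 (log2 fold change −1.64 ± 0.23 SE, edgeR adjusted p = 0.00967). Mutant replicate 1 stood apart from the other mutants in proliferation genes and in summed glandular markers (13510 CPM, beside 119 to 230 CPM). Results that move without it are given both ways. Across genes, pairs of mutant libraries correlated at 0.811 to 0.961 and pairs of controls at 0.977 to 0.982 (Pearson's r of log2 CPM). Controls were pools and mutants single mice, so these ranges do not compare the spread between mice.

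Egfr and Ereg fell in Brg1-mutant epithelium and no member rose. That is 2 of 10 members lower, against 6.18% of all tested genes, and 0 higher, against 5.37% (edgeR's quasi-likelihood F test, adjusted p under 0.05 by Benjamini-Hochberg over all genes, 11.5% called in either direction). Of all calls 46.5% were higher in mutants with TMM scaling; that share was 62.6% after scaling by the upper quartile and 80.5% after scaling by total count. The median log2 fold change of the 10 members was −0.43, beside 0.06 for all tested genes. In the authors' deposited table the same 2 members are past an adjusted p of 0.05, where 8.34% of genes with an adjusted p are lower. Mutants lay below controls without overlap for 4 members, Egfr, Erbb3, Ereg and Errfi1, beside 16.1% of all tested genes, and above controls for 0 members, beside 15.4%. These separations depend on the scaling for Erbb3, Errfi1 and Erbb2. With CPM per total gene reads, Erbb3 and Errfi1 overlap between the groups and Erbb2 lies higher in every mutant than in any control.

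**Figure D1:**
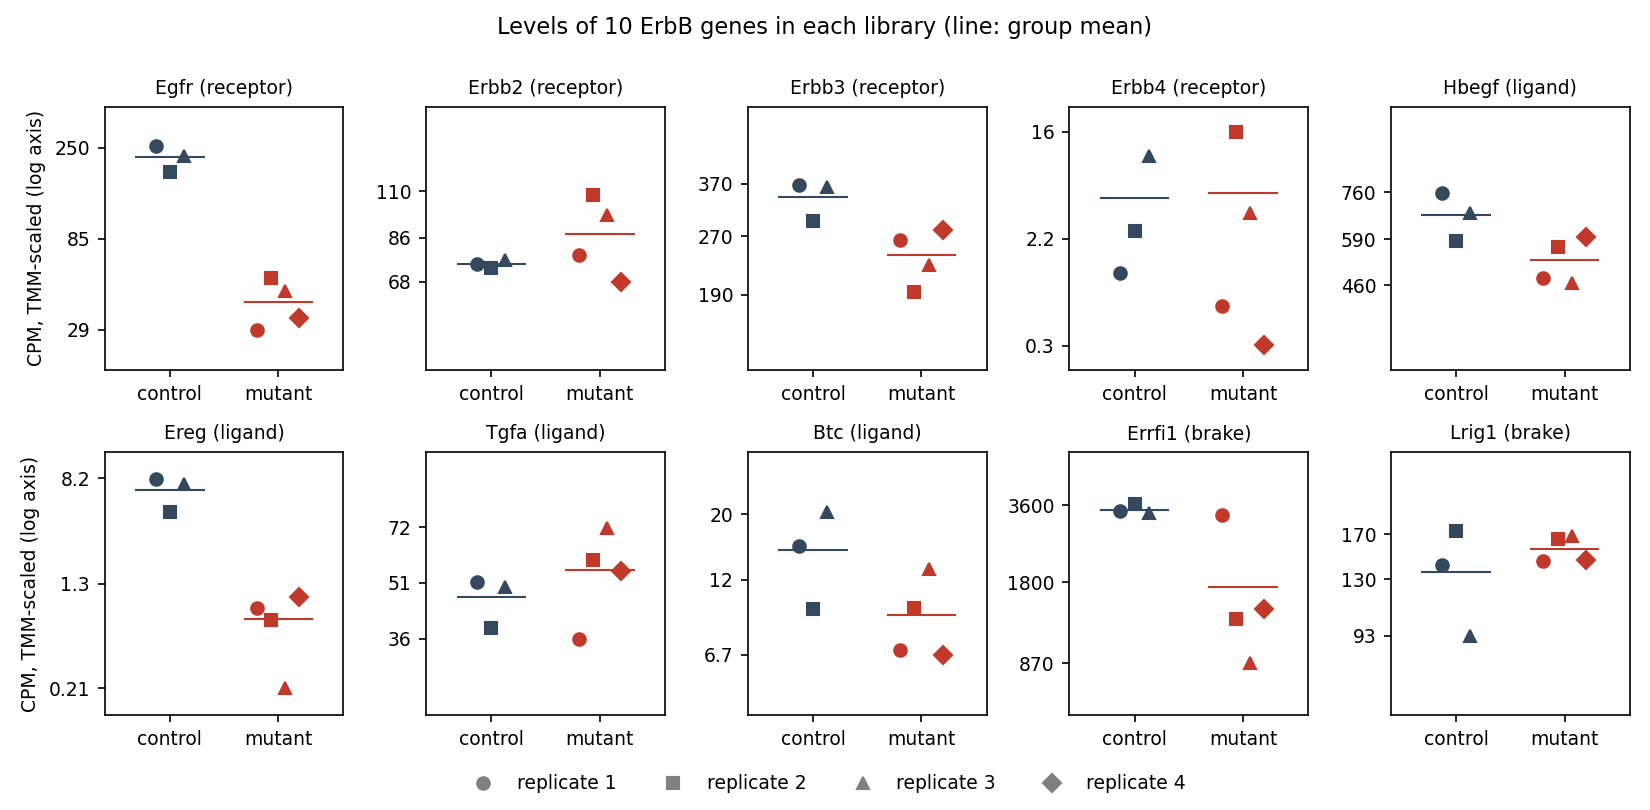
Level of each of the 10 genes in each library, in TMM-scaled CPM on a log axis with its own range per panel; points are libraries, marker shapes are replicate numbers and lines are group means. The 4 mutants lie below the 3 controls for Egfr, Erbb3, Ereg and Errfi1, with mutant replicate 1 of Errfi1 next to the controls, and the groups overlap for the other 6 genes.

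Egfr, the receptor that binds all 4 ligands in this list, was 28.7, 53.4, 45.7 and 33.3 CPM in mutant replicates 1 to 4. In control replicates 1 to 3 it was 254, 188 and 228 CPM. The highest mutant therefore lay far under the lowest control, on 368 to 697 reads per mutant library and 3563 to 5015 per control. The level fell 5.54-fold (95% interval 3.66 to 8.38; log2 fold change −2.47 ± 0.26 SE, edgeR adjusted p = 0.00509). Leaving out any 1 library kept Egfr past the threshold, with log2 fold changes from −2.63 to −2.30 and edgeR adjusted p from 0.00226 to 0.0351. Egfr (ENSMUSG00000020122.16) lies on chromosome 11 of GRCm38 from 16752203 to 16918158 on the plus strand. The gene Egfros overlaps it on the other strand, and the counts used are strand-specific.

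In bulk RNA, fewer cells of a type and less RNA per cell cannot be told apart. Egfr is also made by uterine stroma, and the 8 stromal fibroblast markers summed to 170 to 554 CPM in the mutants and 654 to 797 CPM in the controls, with 1 of 8 (Dcn) called lower, a median log2 fold change of −1.38 and no marker at 0. Their part in the fall of Egfr was not tested. The 8 epithelial markers, which include the sorted antigen Epcam, summed to 7607 to 11106 CPM in the mutants and 15543 to 18944 CPM in the controls, with 2 of 8 lower, Cdh1 and Krt8. Of all tested genes 6.18% were lower. Epcam itself ranged from 572 to 742 CPM in mutants, from 821 to 964 CPM in controls, and did not pass (log2 fold change −0.38, edgeR adjusted p = 0.206). The epithelial markers thus summed to more than the stromal fibroblast markers in every library, which does not measure purity. The part of the epithelial decline in the member values was not tested.

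Sequence upstream of the start sites is shown for Egfr, which fell, for Erbb2, the neighbouring receptor in level that did not, and for Errfi1, the brake whose level split the mutants. Each is the 250 bases before a RefSeq transcript start on GRCm38.p6, 5′ to 3′ on the gene's strand, and capitals mark motif matches. The windows are chr11:16751953-16752202 (plus) for Egfr, chr11:98412234-98412483 (plus) for Erbb2 and chr4:150854820-150855069 (plus) for the downstream of 2 listed Errfi1 starts.
Egfr: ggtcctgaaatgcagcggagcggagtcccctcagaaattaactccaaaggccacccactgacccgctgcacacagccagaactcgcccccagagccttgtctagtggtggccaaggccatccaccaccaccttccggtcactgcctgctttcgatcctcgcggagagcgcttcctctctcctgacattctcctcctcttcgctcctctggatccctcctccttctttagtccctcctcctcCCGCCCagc
Erbb2: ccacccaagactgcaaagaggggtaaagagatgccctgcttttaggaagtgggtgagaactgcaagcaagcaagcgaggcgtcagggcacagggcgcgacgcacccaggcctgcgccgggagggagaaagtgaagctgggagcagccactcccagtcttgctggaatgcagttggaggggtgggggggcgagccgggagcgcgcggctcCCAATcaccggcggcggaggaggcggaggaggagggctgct
Errfi1: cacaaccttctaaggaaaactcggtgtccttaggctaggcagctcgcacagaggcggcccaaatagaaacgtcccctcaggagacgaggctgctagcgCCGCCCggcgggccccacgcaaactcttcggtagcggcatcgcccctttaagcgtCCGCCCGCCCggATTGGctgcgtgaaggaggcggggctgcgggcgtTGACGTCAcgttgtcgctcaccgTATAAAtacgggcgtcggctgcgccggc

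The windows were searched on both strands for the AP-1 site TGANTCA, the cyclic AMP response element TGACGTCA, the TATA box TATAAA (or TTTATA), the GC box GGGCGG (or CCGCCC), the CCAAT box (or ATTGG) and the E-box CACGTG. Egfr held 1 GC box, 9 bases before the start, and no TATA box. Erbb2 held 1 CCAAT box, 41 bases before the start. The Errfi1 window held a cyclic AMP response element 51 bases and a TATA box 28 bases before the start, 1 CCAAT box and 3 GC boxes, 2 of which overlap each other. Of 32851 windows of this length, 1.55% held the cyclic AMP response element, 12.4% the TATA box, 32.7% the GC box, 33.8% the CCAAT box, 6.75% the AP-1 site and 6.02% the E-box. GC content was 60.8% for Egfr, 66.0% for Erbb2 and 64.8% for the Errfi1 window shown, against a median of 52.4%. The window of the other Errfi1 start, chr4:150853546-150853795, had 38% GC and none of these motifs. The table holds starts for 7 of the 10 members, and Erbb3, Hbegf and Ereg are the others. Gene counts do not separate transcripts from the 2 Errfi1 starts.

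The other receptors did not pass the test. Erbb2, a receptor with no known ligand of its own that serves as the preferred partner of the others, was 78.4, 107.9, 97.2 and 68.0 CPM in mutant replicates 1 to 4 and 74.9, 73.2 and 76.4 CPM in the controls. The mutants scattered on both sides of 3 nearly equal controls. The log2 fold change was 0.23 ± 0.20 SE (edgeR adjusted p = 0.464), with a 95% interval from 1.17-fold lower to 1.62-fold higher. Total count scaling gave 0.57 (edgeR adjusted p = 0.0683).

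Erbb3, the neuregulin receptor whose own kinase is weak, was 263, 193, 227 and 281 CPM in mutants and 368, 296 and 363 CPM in controls. Every mutant was under every control, by a narrow gap. It did not pass after adjustment over all genes (log2 fold change −0.51 ± 0.19 SE, edgeR adjusted p = 0.125), and its 95% interval ran from 1.04-fold to 1.94-fold lower.

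Erbb4, the other neuregulin receptor, was low and scattered. It had 8, 209, 51 and 5 reads in mutant replicates 1 to 4 (0.625, 16.0, 3.56 and 0.304 CPM) and 22, 48 and 226 reads in the controls (1.16, 2.53 and 10.3 CPM). Each group spanned a wide range, and the 95% interval ran from 7.41-fold lower to 8.92-fold higher (edgeR adjusted p = 0.955), so no difference of a moderate size was detectable. Its log2 fold change of 0.13 became −1.62 without mutant replicate 2 and 1.48 without control replicate 3.

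Per kilobase of exon, where genes can be compared with each other, Erbb3 was the most abundant receptor in both groups. In controls it stood at 56.9 ± 6.7 CPM per kb (SD, n = 3), followed by Egfr at 19.7 ± 2.9, Erbb2 at 14.4 ± 0.31 and Erbb4 at 0.376 ± 0.397 CPM per kb. In mutants the order was Erbb3 at 40.1 ± 6.5 (SD, n = 4), Erbb2 at 16.9 ± 3.5, Egfr at 3.56 ± 0.997 and Erbb4 at 0.415 ± 0.599 CPM per kb. Neighbours in these 2 orders did not overlap. Egfr thus stood above Erbb2 in all 3 controls and below it in all 4 mutants.

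The ratio of Egfr to Erbb2 in a library does not depend on scaling. Per length it was 1.56, 1.18 and 1.37 in control replicates 1 to 3 and 0.169, 0.228, 0.216 and 0.225 in mutant replicates 1 to 4. As a share of the length-scaled reads of all 4 receptors, Egfr took 22.9%, 20.7% and 20.9% in the controls and 4.13%, 8.01%, 6.65% and 4.69% in the mutants. Erbb2 took 14.7% to 17.5% in controls and 20.8% to 35.2% in mutants. Erbb3 took 61.5% to 62.9% in controls and 54.6% to 74.5% in mutants, so its share overlapped between the groups. These shares are a description, with no test.

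**Figure D2:**
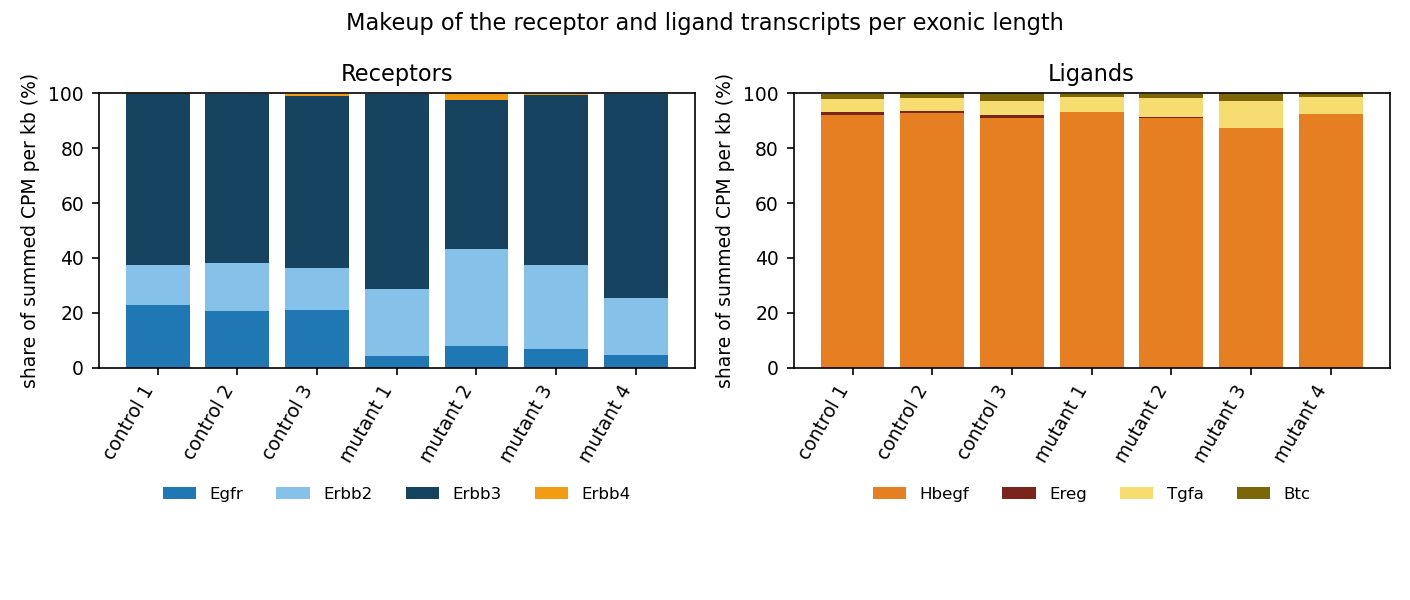
Share of each gene in the summed CPM per kb of the 4 receptors (left) and the 4 ligands (right), as stacked percentages for each library. Egfr takes 20.7% to 22.9% of the receptors in the controls and 4.13% to 8.01% in the mutants, while Hbegf takes 87.3% to 93.1% of the ligands in every library.

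Among the ligands, Ereg (epiregulin, a ligand of Egfr and Erbb4) fell from a low level to a lower one. It had 155, 86 and 164 reads in control replicates 1 to 3 (8.16, 4.54 and 7.44 CPM). In mutant replicates 1 to 4 it had 11, 9, 3 and 17 reads (0.859, 0.689, 0.210 and 1.03 CPM), so mutant replicate 3 was at the floor of 3 reads. All mutants were under all controls. The fall was 9.51-fold (95% interval 4.07 to 22.2; log2 fold change −3.25 ± 0.53 SE, edgeR adjusted p = 0.0145). The call was lost when a control was left out, at edgeR adjusted p = 0.0776, 0.0576 and 0.0788 without control replicates 1, 2 and 3, with log2 fold changes of −3.05, −3.42 and −3.13. Ereg (ENSMUSG00000029377.5) lies on chromosome 5 of GRCm38 from 91074622 to 91093646 on the plus strand.

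Hbegf, the heparin-binding ligand of Egfr and Erbb4, was the most abundant ligand. It was 477, 567, 464 and 598 CPM in mutant replicates 1 to 4 and 756, 582 and 678 CPM in the controls. Only the highest mutant reached into the control range. It did not pass (edgeR adjusted p = 0.248; log2 fold change −0.35 ± 0.19 SE), with a 95% interval from 1.73-fold lower to 1.06-fold higher, and the value was 0.00 with total count scaling.

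Tgfa, a soluble ligand of Egfr once shed, was 35.8, 58.6, 71.8 and 54.9 CPM in mutants and 51.3, 38.6 and 49.6 CPM in controls. Mutant replicate 1 was the lowest of all 7 libraries and the other mutants were above all controls. The log2 fold change was 0.25 ± 0.26 SE (edgeR adjusted p = 0.547), with a 95% interval from 1.27-fold lower to 1.80-fold higher. Without mutant replicate 1 it was 0.45 (edgeR adjusted p = 0.0927).

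Btc (betacellulin, a ligand of Egfr and Erbb4) was 6.95, 9.65, 13.1 and 6.69 CPM in mutants and 15.6, 9.56 and 20.3 CPM in controls. The groups overlapped through control replicate 2. It did not pass (edgeR adjusted p = 0.204; log2 fold change −0.74 ± 0.36 SE), with a 95% interval from 2.96-fold lower to 1.06-fold higher.

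Per kilobase, the ligands ranked Hbegf, Tgfa, Btc and Ereg in both groups. Their control levels were 139 ± 18, 7.17 ± 1.07, 3.35 ± 1.19 and 1.63 ± 0.46 CPM per kb (SD, n = 3), and their mutant levels 108.9 ± 13.7, 8.52 ± 2.29, 2.01 ± 0.66 and 0.169 ± 0.086 CPM per kb (SD, n = 4). Neighbours did not overlap in either group. Of the length-scaled ligand reads, Ereg held 0.849% to 1.17% in controls and 0.0462% to 0.196% in mutants, and Tgfa 4.59% to 4.96% in controls and 5.21% to 10.1% in mutants. The ligand that fell was thus the least abundant of the 4, and Hbegf supplied most of the ligand transcript in every library.

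Errfi1 (also called Mig-6), a cytoplasmic protein that binds the kinase domain of Egfr and blocks it, was the most abundant member per length in both groups. It was 3403, 3626 and 3339 CPM in the controls. In mutant replicates 1 to 4 it was 3287, 1299, 873 and 1414 CPM. Mutant replicate 1 lay next to the controls, and the other 3 mutants lay far under them. With all libraries Errfi1 did not pass (log2 fold change −1.01 ± 0.44 SE, 95% interval from 4.11-fold lower to 1.02-fold higher, edgeR adjusted p = 0.169). Without mutant replicate 1 it passed, at −1.48 ± 0.24 SE (edgeR adjusted p = 0.00750). Then 3 of 10 members were lower, Egfr, Ereg and Errfi1, against 14.0% of the genes tested without that library.

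Errfi1 (ENSMUSG00000028967.10) lies on chromosome 4 of GRCm38 from 150853919 to 150868892 on the plus strand. In the authors' deposited table its log2 fold change is −0.995 with an adjusted p of 0.0660. The per-length ratio of Errfi1 to Egfr was 42.3, 60.9 and 46.4 in control replicates 1 to 3 and 362, 76.97, 60.4 and 134 in mutant replicates 1 to 4. In 3 of the 4 mutants Errfi1 transcript thus outnumbered Egfr transcript by more than in any control, and mutant replicate 3 lay within the control range. These are transcript ratios, and no protein level is given.

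Lrig1, a membrane protein that promotes degradation of ErbB receptors, was 145, 165, 168 and 146 CPM in mutants and 142, 174 and 92.5 CPM in controls. The mutants all lay inside the control range. The log2 fold change was 0.20 ± 0.23 SE (edgeR adjusted p = 0.593), with a 95% interval from 1.26-fold lower to 1.67-fold higher. The per-length ratio of Lrig1 to Egfr was 6.29 to 10.3 in mutants and 0.825 to 1.87 in controls.

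**Figure D3:**
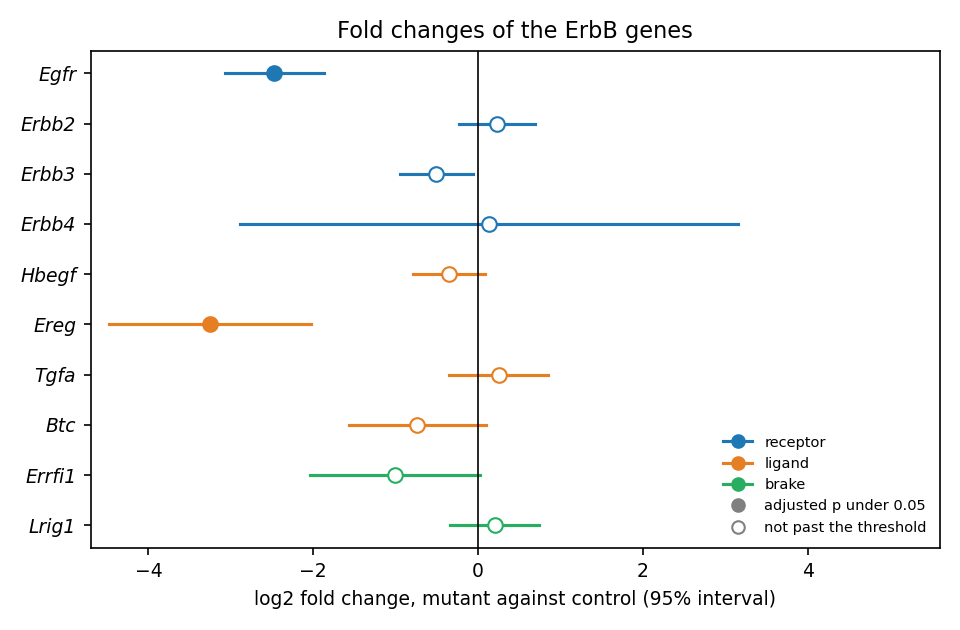
Log2 fold change of each member, mutant against control, with its 95% interval from the edgeR fit; colours mark receptors, ligands and brakes and filled points are past the threshold. Egfr (−2.47) and Ereg (−3.25) are the filled points, and the interval of Erbb4 is the widest.

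The split in Errfi1 ran alongside other differences of mutant replicate 1. Of the 8 proliferation genes, Top2a was 269.7 CPM there and above every control in all 4 mutants. The other 7, taken apart after the values were seen, summed to 23.3 CPM in mutant replicate 1, to 551, 787 and 377 CPM in mutant replicates 2 to 4 and to 127, 166 and 241.02 CPM in the controls. Each of these 7 was lower in mutant replicate 1 than in every control. With Top2a included, the 8 summed to 293 CPM in mutant replicate 1, within the 242 to 453 CPM of the controls. The 10 ERK output genes, transcripts known to rise with ERK activity, summed to 911, 2850, 2267 and 1482 CPM in mutant replicates 1 to 4 and 2125 to 2989 CPM in controls. The library with the highest Errfi1 among the mutants thus had the lowest sums of the mutants for both lists. Among the ERK output genes Etv5 ran the other way, at 166 CPM there and 15.6 to 58.6 CPM in the other libraries. Spry2 was 73.8 CPM there and lower in mutant replicate 4, at 41.8 CPM. The remaining ERK output genes were each lowest of the mutants in mutant replicate 1. The glandular markers split the mutants as Errfi1 did. They summed to 13510 CPM in mutant replicate 1, within the 9839 to 50154 CPM of the controls, and to 119 to 230 CPM in the other mutants. The part of these differences in the Errfi1 values was not tested.

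**Figure D4:**
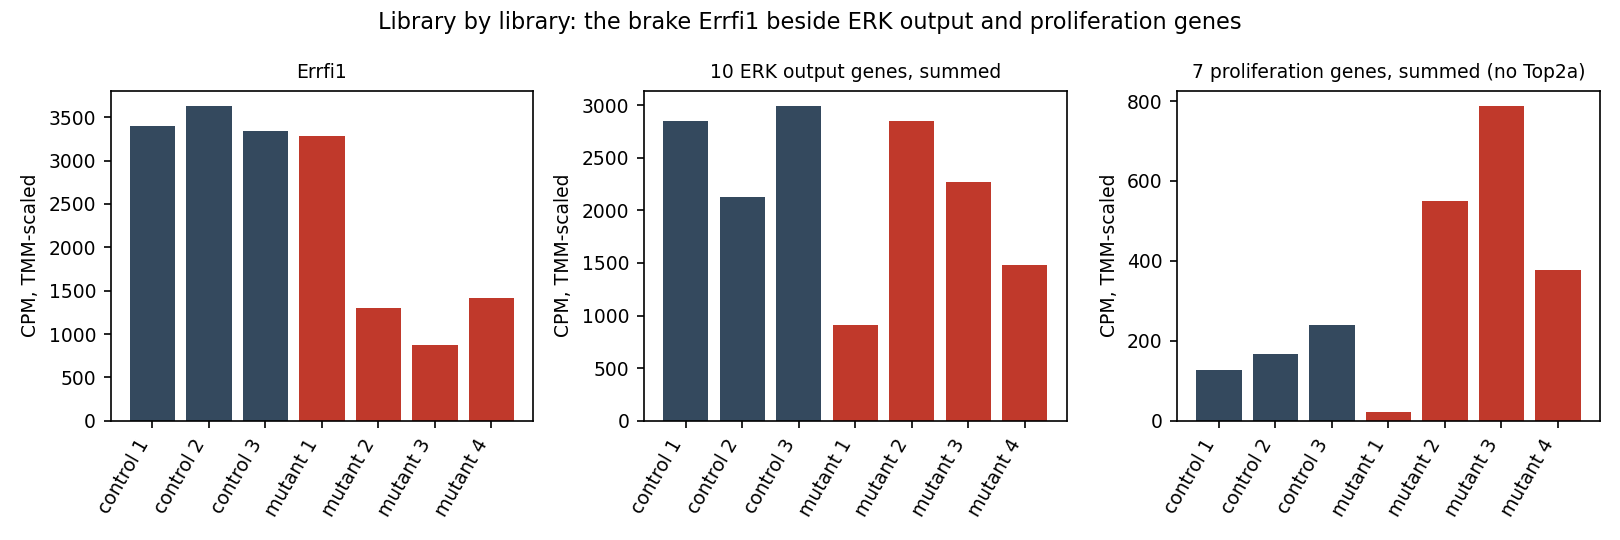
TMM-scaled CPM in each library of Errfi1 (left), of 10 ERK output genes summed (middle) and of 7 proliferation genes without Top2a summed (right); bars are single libraries. Mutant replicate 1 has the highest Errfi1 of the mutants (3287 CPM) and their lowest sums (911 and 23.3 CPM).

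None of the 10 ERK output genes passed in either direction, and their median log2 fold change was 0.41. The most abundant, Phlda1, was 292 to 941 CPM in the mutants and 1003 to 1450 CPM in the controls without overlap (log2 fold change −1.11 ± 0.39 SE, edgeR adjusted p = 0.104). Dusp6, the ERK phosphatase, chosen after its values were seen, was 99.2, 774, 426 and 113 CPM in mutant replicates 1 to 4 and 122 to 234 CPM in controls, and did not pass (edgeR adjusted p = 0.339, log2 fold change 1.14 ± 0.75 SE). Without mutant replicate 1, 2 of the 10 were lower and 1 higher, near the shares of all genes in that fit, 14.0% and 15.5%.

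Over the 5 lists of other pathway genes, 64 of 68 were tested, 8 were lower and none higher, with a median log2 fold change of −0.29. The share lower can be set beside the 6.18% above, but the lists were chosen with earlier results of these data known. Without mutant replicate 1, 13 of 64 were lower and 4 higher, where 14.0% of all genes were lower and 15.5% higher. When control replicate 1, 2 or 3 was left out, 0 of 65 were called, where 0.555%, 0.737% and 0.605% of all genes were lower. Under these removals the log2 fold changes ran from −1.97 to −1.86 for Rhbdf1, −1.37 to −1.19 for Rhbdf2 and −1.45 to −1.31 for Spint1.

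The list of ligand sheddases and their cofactors gave 3 of the 8 falls, none of them a sheddase. Rhbdf1 and Rhbdf2, the inactive rhomboid proteins that escort the sheddase ADAM17 to the cell surface, both fell. Rhbdf1 was 20.5, 38.6, 40.1 and 56.1 CPM in mutants and 160, 135 and 153 CPM in controls (−1.94 ± 0.31 SE, edgeR adjusted p = 0.0145). Rhbdf2 was 58.6, 98.6, 75.1 and 84.5 CPM in mutants and 191, 175 and 229 CPM in controls (−1.33 ± 0.22 SE, edgeR adjusted p = 0.0146). The groups did not overlap for either gene. The third, Spint1, inhibits membrane serine proteases (−1.43 ± 0.26 SE, edgeR adjusted p = 0.0186). The Spint1 call was lost without mutant replicate 3 (edgeR adjusted p = 0.0540). The list median was −0.66 over 7 tested genes, 3 of them lower, beside 6.18% of all tested genes. Adam17, the sheddase for Hbegf, Tgfa and Ereg, did not pass (0.56 ± 0.24 SE, edgeR adjusted p = 0.154). Adam10, which sheds Btc, did not pass (0.38 ± 0.19 SE, edgeR adjusted p = 0.223). Both were chosen by name after the values were seen.

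Of the 24 adaptors and kinases near the receptors, 2 fell, near the 6.18% of all tested genes that were lower, with a list median of −0.30. They were the adaptor Grb2 (−0.79 ± 0.17 SE, edgeR adjusted p = 0.0320) and the kinase Akt1 (−0.70 ± 0.17 SE, edgeR adjusted p = 0.0422). Both calls were lost with upper-quartile scaling (edgeR adjusted p = 0.0564 and 0.0673), total count scaling (0.170 and 0.238) and no filter (0.0673 and 0.0972). They were also lost without mutant replicate 2 (edgeR adjusted p = 0.0644 and 0.0873) or 3 (0.0827 and 0.0626). That of Akt1 was lost with unstranded counts (edgeR adjusted p = 0.0510) and without mutant replicate 4 (0.0899) too. Of 20 genes that switch off or remove receptors, 3 fell, beside the same 6.18%, with a list median of −0.07. They were the ubiquitin ligase Cblb (−1.53 ± 0.35 SE, edgeR adjusted p = 0.0362), the phosphatase Ptpn1 (−1.57 ± 0.38 SE, edgeR adjusted p = 0.0415) and the endosomal sorting protein Hgs (−0.83 ± 0.18 SE, edgeR adjusted p = 0.0316). All 3 calls were lost when mutant replicate 2, 3 or 4 was left out. Those of Ptpn1 and Hgs were also lost with total count scaling (edgeR adjusted p = 0.0508 and 0.138), and that of Hgs with no filter (0.0651).

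The other EGF-family ligands were low. Of 7, 3 were tested and none passed, with a median of −0.33. Areg (amphiregulin, a ligand of Egfr) had the highest mean over all 7 libraries, at 18.6, 4.82, 4.404 and 11.3 CPM in mutant replicates 1 to 4 and 27.6, 17.4 and 19.9 CPM in controls. Nrg4, a ligand of Erbb4, was above it in mutant replicates 1 and 4, at 23.8 and 14.3 CPM. For Areg, mutant replicate 1 lay inside the control range and the other mutants below that range. Areg did not pass with all libraries (−1.15 ± 0.52 SE, edgeR adjusted p = 0.181) and passed without mutant replicate 1 (−1.60, edgeR adjusted p = 0.0297). Nrg3, like Nrg4 named after its values were seen, was at 0 reads in all 7 libraries.

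**Figure D5:**
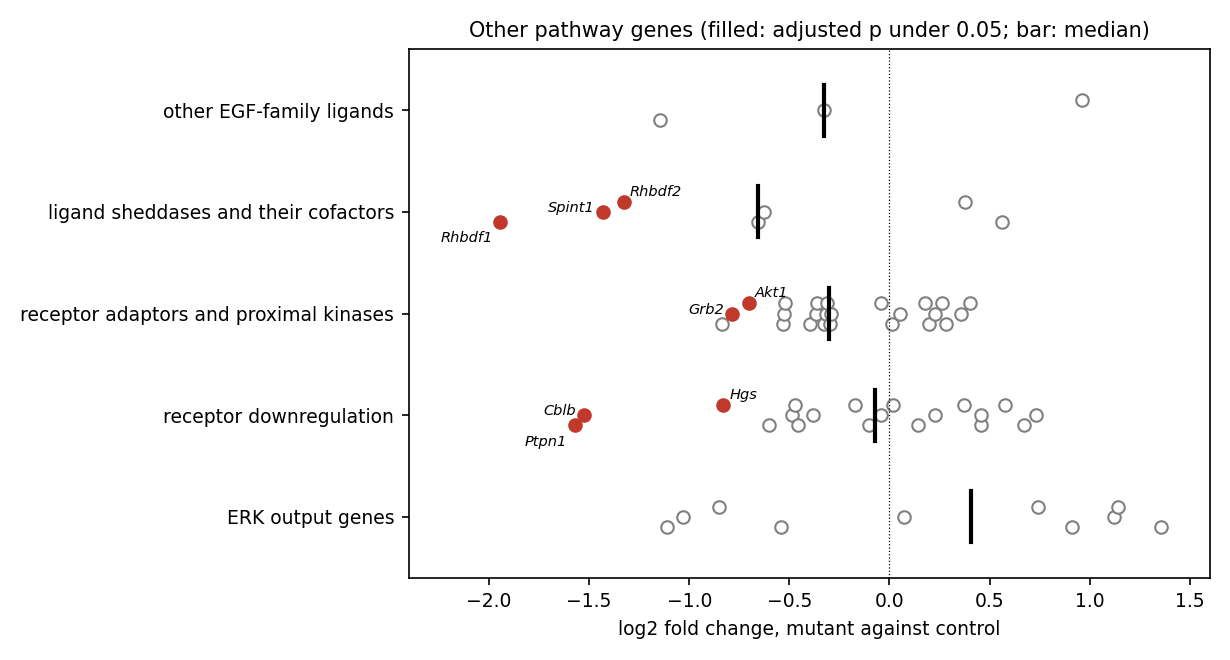
Log2 fold change, mutant against control, of the tested genes in 5 lists of other pathway genes; filled points passed the edgeR test and black bars are list medians. The 8 filled genes all lie below 0, and the median of the ERK output genes, 0.41, is the only one above 0.

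The genes most like Egfr over the 7 libraries, by Pearson correlation of log2 CPM, were Fbrs (r = 0.996), Mef2d (0.995) and Usp43 (0.994), of 10369 genes considered. Usp43 fell by 2.05 on the log2 scale and Fbrs by 0.81. Those most like Ereg were Olfm1 (r = 0.991), Tec (0.990) and Spsb1 (0.989). With 7 libraries in 2 separated groups, these values mostly rank genes by a difference between the groups, and they are a description.

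The lists of other cell types ran as follows beside the members. Smooth muscle markers summed to 7.73 to 75.3 CPM in the mutants and 66.6 to 107.6 CPM in the controls, with 0 of 5 tested called and Actg2 at 0 reads in a mutant. Endothelial markers summed to 4.67 to 19.2 and 16.7 to 21.0 CPM, with 0 of 6 called and Cldn5 at 0 in a mutant. Immune markers summed to 242 to 467 and 373 to 472 CPM, with 0 of 7 called. The T-cell gene Cd3e was 0, 0.306, 2.52 and 0.182 CPM in mutant replicates 1 to 4 and 18.4, 11.6 and 7.08 CPM in the controls, without overlap (log2 fold change −4.02 ± 1.14 SE, edgeR adjusted p = 0.0617), and its part in the member values was not tested. The rest of the immune list did not follow Cd3e. Ptprc, Csf1r and Adgre1 had log2 fold changes of 0.66, 0.13 and 0.11. Lyz2, Cd68 and Cd79a had −0.02, −0.35 and −0.58, and their groups overlapped. Mesothelial markers summed to 8.98 to 37.3 and 40.1 to 55.2 CPM, with 0 of 4 called. Glandular markers summed to 13510 CPM in mutant replicate 1, to 119 to 230 CPM in the other mutants and to 9839 to 50154 CPM in controls. Of these 7, Foxa2 and Sox9 fell, where 6.18% of all tested genes were lower. Cxcl15, Prss28, Prss29, Spink1 and Ttr did not pass and were at 0 reads in at least 1 mutant. Yet Cxcl15 was 29.0 and 89.2 CPM in mutant replicates 1 and 4, above the controls at 4.16 to 10.3 CPM. Ttr was 24.7 CPM in mutant replicate 1, above the controls at 9.48 to 15.7 CPM. The part of gland content in the member values was not tested.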

How the data were processed

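Per the labels' protocols, directional mRNA libraries were built with a KAPA kit from RNA of magnetically sorted cells. Per the submitters' processing notes, the tools included cutadapt, Trim Galore, FastQC, STAR and DESeq2 and the build was mm10; the sources used here name no versions. The authors deposited whole-number counts of reads per gene for 7 libraries, not normalized, and the reverse-stranded column, which held 94.8% to 95.6% of the reads of both stranded columns, was used. Reads without a gene made up 10.5% to 14.7% of a library and stayed out of library sizes. The authors also deposited a table, DESeq2 per its file name, of log2 fold changes with adjusted p-values, copied for the members only. Of 53379 gene IDs, 53274 matched GENCODE M21 (GRCm38), which gave symbols, coordinates and exonic lengths.

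Genes kept by filterByExpr were tested in R 4.3.3 with edgeR 4.0.16 (TMM, quasi-likelihood F test, genotype as the only term, two-sided, Benjamini-Hochberg over 14610 genes, threshold 0.05). Standard errors and 95% intervals come from that fit. Alternatives used DESeq2 1.42.0, limma 3.58.1, other scalings, filters and counting, and leaving out each library; the closing section gives their effect. In 3 simulations of this comparison (14610 genes, 200 of them changed), the test found 0.995% of changes of 2-fold, 34.8% of those of 4-fold and 67.2% of those of 8-fold, so a member that did not pass can still differ. The data gave 1687 called genes, far more than the 200 changed in a simulation. The cut-off after adjustment was therefore less strict in the data, and these shares can understate detection there. The floor of 3 reads and the depth cover counting error only.

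The members and lists were chosen with earlier results of these data known. By rule, the genes named are the 10 members, Smarca4, up to 4 genes past the threshold per pathway list or the most abundant gene where none passed, and the 3 genes most correlated with each member past the threshold among those with a mean of at least 5 CPM and a settled symbol. Outside the rule, Dusp6, Etv5, Spry2, Adam10, Adam17, Nrg3, Nrg4, Top2a and single marker genes were named after their values were seen. ERK output genes are 10 transcripts of a published ERK activity score. Promoter windows are from RefSeq (GRCm38.p6).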

Additional observations from a re-analysis of the deposited data

Results flagged for a closer look

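Spint1, the protease inhibitor, had 1 mutant library far from the other 3. Mutant replicate 1 was at 299.95 CPM, and mutant replicates 2 to 4 were at 161, 170 and 185 CPM, so that the gap to the next library took 0.830 of the range, just above the limit of Dixon's test for 4 libraries. Chance marks about 1 in 20 such groups, and 20 genes were looked at. Controls were at 501 to 621 CPM.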

How the results depend on the processing

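Egfr kept its direction and its call in 15 of 16 alternatives, Ereg in 12 of 16, and Errfi1 stayed short of the threshold in 15 of 16. The median log2 fold change of all genes was 0.06 after TMM, 0.20 after upper-quartile and 0.41 after total count scaling. The 1687 changed genes became 3423 with DESeq2, 2731 with total count scaling and 1057 with no filter. Pathway genes lower numbered 8, then 4 with total count scaling and 5 with no filter; those higher numbered 0, then 1 with DESeq2 and 5 with total count scaling. Hbegf turned to 0.0048 with total count scaling and Erbb4 to −0.85 with limma-voom; the causes were not tested. Leaving out 1 library gave 133 to 4403 changed genes, the most without mutant replicate 1. Dropping mutant replicate 2, 3 or 4 gave 1009, 629 and 940, and dropping control replicate 1, 2 or 3 gave 133, 169 and 137. It gave 1 to 3 members lower, 0 to 13 pathway genes lower and 0 to 4 higher. Log2 fold changes then ran from −3.50 to −2.94 for Ereg, −1.48 to −0.78 for Errfi1 and −1.62 to 1.48 for Erbb4, which was −1.62 without mutant replicate 2, −0.30 without control replicate 1 and −0.12 without control replicate 2. Smarca4 missed the threshold without control replicates 1, 2 and 3 (edgeR adjusted p = 0.0612, 0.0532 and 0.0575). Same-numbered libraries share only a number: their deviations correlated at −0.020, −0.362 and 0.155. With the replicate block, in which mutant replicate 4 has no partner and adds nothing to the difference, 2 genes changed, 0 members and 0 pathway genes were lower, and Egfr was at −2.42 (edgeR adjusted p = 0.135) and Ereg at −3.58 (0.142). Depth limits Erbb4 and Ereg, which had under 20 reads in 2 and 4 mutant libraries.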
